A study of Mus musculus with 23 samples.

Results

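Of 36001 regions marked by histone H3 lysine 4 monomethylation (H3K4me1) in wild-type (WT) mouse embryonic stem cells, 4876 overlapped no H3K4me1 peak of Bach1-knockout cells by even 1 bp, a share of 13.5% (95% exact binomial interval 13.2 to 13.9%, counting error only). The share depends on the lists and the rule: it was 26.5% with the knockout list shortened to its 36001 peaks of highest −log10 q, 22.4% where kept meant at least 50% of a region covered, and 5.71% among the WT regions in the upper part of the list by −log10 q. These 4876 are called absent regions below, and the other 31125 kept regions. The rule uses the peak positions of both H3K4me1 lists, so positions, enrichment and width in those lists describe the regions and were not tested. H3K4me1 is laid down by the MLL/SET1 family of methyltransferases and is known for marking enhancers, active and poised, and the flanks of promoters. H3K27ac, an acetylation, marks enhancers and promoters in use, and H3K4me3 marks promoters. NANOG is a homeodomain factor of pluripotent cells that binds many enhancers, and BACH1 is a heme-responsive leucine zipper factor that mostly represses its targets with small MAF partners.

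The cells were E14Tg2A, a mouse embryonic stem cell line grown in serum and leukemia inhibitory factor without feeders, on gelatin. The Bach1-KO cells (genotype Bach1 -/-) had been made with CRISPR/Cas9 and are set against WT cells of the same line. A further group, DoxBach1 cells, carried a doxycycline-inducible BACH1 with a C-terminal FLAG tag, inserted with piggyBac, and received doxycycline for 6 hours, at a labelled dose of 0.5 μg/μL. Its FLAG peaks therefore come from an added transgene, not from BACH1 at its own level. H3K4me1, H3K27ac and H3K4me3 each had 1 chromatin immunoprecipitation (ChIP) library per genotype, NANOG had 2 replicates per genotype and FLAG-BACH1 had 1 library. The labels name no knockout clone, and any other way in which these cells differ from WT cells cannot be told apart from BACH1 deficiency. With 1 H3K4me1 library per genotype, no test of the genotype was possible, and regions of 1 library are not replicates. Intervals on shares of regions cover counting error only.

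Bach1 RNA stood at 1.69, 1.76 and 2.05 TPM in the knockout libraries and at 2.35, 2.50 and 2.70 TPM in the WT libraries. The groups did not overlap, with means of 1.83 ± 0.188 TPM in knockout and 2.52 ± 0.177 TPM in WT cells (SD, n = 3 each). The difference was -0.31 on the log2(TPM + 1) scale (exact two-sided permutation test, p = 0.1, the smallest that 3 against 3 libraries allow). With median-of-ratios scaling between libraries it was -0.16 (exact permutation p = 0.2). The position of the edit was not used here, and an RNA level does not tell whether working BACH1 was made. Of 7 stem cell markers, all 7 were at 1 TPM or more in every library, but their levels differed between genotypes in both directions. Klf4 ran from 10.2 to 11.1 TPM in knockout and from 43.5 to 45.8 TPM in WT libraries. Sox2, Nanog and Esrrb were also lower in the knockout. Utf1 ran from 480.3 to 496.8 TPM in knockout and from 36.2 to 41.0 TPM in WT libraries. Pou5f1 and Zfp42 were also higher in the knockout. Of 5 fibroblast markers 3, the collagens Col1a1, Col1a2 and Col3a1, were below 1 TPM in every library, and of 4 endoderm markers 3 were. The fibroblast markers summed to between 12.5 and 13.6 TPM in knockout and between 6.03 and 6.67 TPM in WT libraries. Among the fibroblast markers, Thy1 alone was higher in the knockout, at 11.4 to 12.4 TPM against 2.95 to 3.33 TPM in WT libraries. Pdgfrb was lower, at 0.525 to 0.634 TPM against 2.38 to 2.71 TPM in WT libraries. The endoderm markers summed to between 1.66 and 1.76 TPM in knockout and between 1.16 and 1.65 TPM in WT libraries. The part of either sum, or of the stem cell marker levels, in the differences below was not tested.

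The knockout H3K4me1 list was the longer one. It held 54227 peaks over 112 Mb, against 36001 peaks over 65.6 Mb in WT cells, and 47.4% of its peaks (25677) overlapped no WT peak. The H3K27ac and H3K4me3 lists ran the other way, with 25755 knockout and 44579 WT peaks for H3K27ac and 11157 knockout and 18779 WT peaks for H3K4me3. NANOG had 2071 knockout and 9247 WT peaks in replicate 1, and 20025 knockout and 10031 WT peaks in replicate 2, so the order of the genotypes turned over between replicates. Read depth is not given in the files, and its part in the lengths of these lists was not tested.

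Absent regions were narrow and weakly enriched members of the WT list. Their width ran from 298 to 12760 bp with a median of 565 bp, and quartiles at 396 and 919 bp, against 1344 bp with quartiles at 719 and 2410 bp for kept regions. Of the 4876, 4391 (90.1%) were narrower than the median kept region. Their fold enrichment over background, as the authors' peak caller gave it, ran from 2.18 to 4.28 with a median of 2.83, against a range of 2.15 to 5.39 and a median of 2.95 in kept regions. The median −log10 q was 1.47 in absent and 1.83 in kept regions, where the lowest value in the list is 1.01. In absent regions, fold enrichment was below the kept median in 3494 of 4876 cases (71.7%).

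The share of absent regions changed with both width and enrichment. A wide region has more bases that could meet a knockout peak, so the rule itself favours narrow ones. In the narrowest quintile of all WT regions, 298 to 540 bp, 2313 of 7201 regions were absent (32.1%). In the widest quintile, from 2563 bp upward, 50 of 7200 were absent (0.694%). Across deciles of fold enrichment the share was 20.8% in the weakest and 4% in the strongest, where 144 of 3600 regions were absent. Narrow regions were often absent even when strongly enriched. Among regions of the narrowest quintile and the upper 5 enrichment deciles, 773 of 2750 were absent (28.1%), and among the widest quintile with the lower 5 deciles 26 of 1978 were (1.31%). With the lower 5 deciles the narrowest quintile gave 34.6%, and with the upper 5 the widest gave 0.46%.

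**Figure D1:**
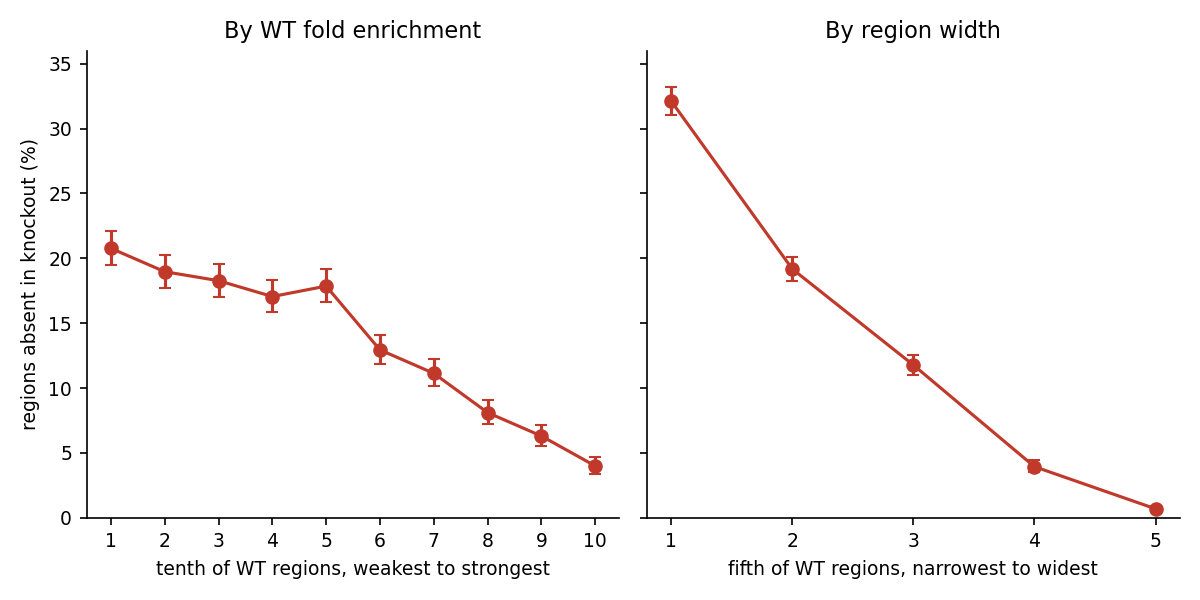
Share of WT H3K4me1 regions with no overlapping knockout H3K4me1 peak (y axis, percent) by decile of WT fold enrichment (left) and quintile of width (right), with 95% exact binomial intervals. The share was 20.8% in the weakest and 4% in the strongest decile, and 32.1% in the narrowest and 0.694% in the widest quintile.

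Most absent regions did not lie beside a knockout peak. The gap to the nearest knockout H3K4me1 peak had a median of 3225 bp, with quartiles at 1295 and 10567 bp, and reached 1.47e+06 bp. A gap of at most 1000 bp was found in 998 regions (20.5%), and a gap of over 10000 bp in 1263 (25.9%). At the edge of the rule, 245 absent regions lay within 100 bp of a knockout peak, with a median width of 545 bp and a median fold enrichment of 2.78. Just across that edge, 348 kept regions shared at most 100 bp with knockout peaks, and their medians were 529 bp and 2.81. Kept regions as a whole were covered far more fully, with 15341 of 31125 (49.3%) lying wholly inside knockout peaks. A kept WT region lay within 5000 bp of 1808 absent regions (37.1%), and another kept region within 5000 bp of 48.6% of kept ones. The median gap to it was 8674 bp for absent and 5316 bp for kept regions.

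**Figure D2:**
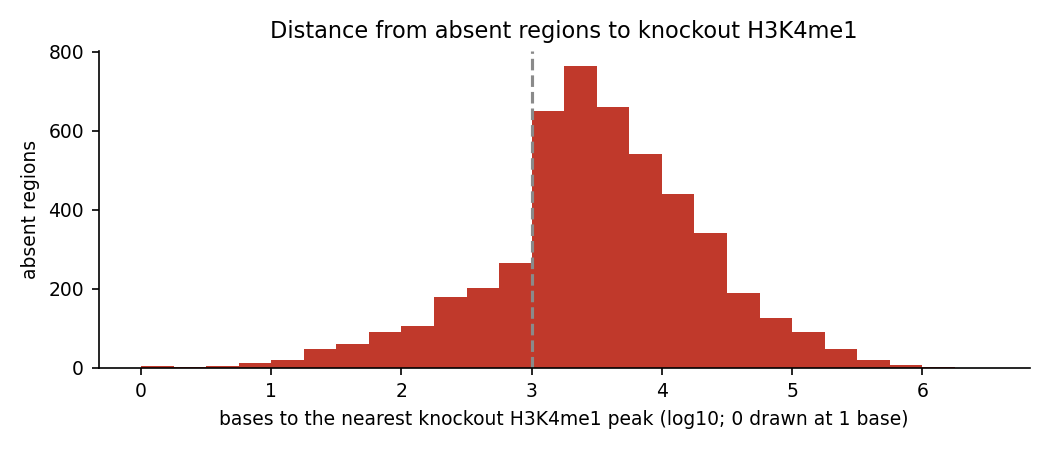
Distance from each of the 4876 absent regions to the nearest knockout H3K4me1 peak (x axis, log10 bases; y axis, number of regions), with a dashed line at 1000 bp. The median lay at 3225 bp, and 998 regions lay at or left of the line.

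Sorted by the promoter and activity marks of WT cells, absent regions were mostly sites with neither mark. A WT peak of neither H3K4me3 nor H3K27ac was present at 3706 of them (76.0%), against 48.3% of kept regions. A WT H3K4me3 peak was present at 956 (19.6%) and a WT H3K27ac peak without H3K4me3, the pattern of active enhancers, at 214 (4.39%). Kept regions had 37.5% and 14.2% in these 2 classes. Read the other way, 7.57% of regions with WT H3K4me3 were absent, 4.62% of those with H3K27ac alone, and 19.8% of those with neither. Regions of the 3 classes also differ in width and enrichment, and strata of fold enrichment and width by themselves give 12.6, 7.99 and 15.5% for these 3 classes. The strata are the 10 deciles of fold enrichment crossed with the 5 quintiles of width.

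Absent regions of the 3 classes were alike in enrichment, with medians of 2.81 at H3K4me3, 2.81 at H3K27ac alone and 2.83 with neither. The regions with H3K27ac alone were the widest of the absent ones, at a median of 806 bp against 567 bp at H3K4me3 and 556 bp with neither. Those at H3K4me3 lay closest to knockout H3K4me1, at a median of 2183 bp, against 3070 bp for H3K27ac alone and 3600 bp for neither. Of the 956 absent regions at WT H3K4me3, 540 lay wholly inside H3K4me3 peaks (56.5%), against 4666 of 11665 kept ones (40.0%). A narrower region lies inside a peak more often by construction, and weighted to the enrichment and width of absent regions the kept share was 65.8%, so the order turned over. Away from WT H3K4me3, the distance to the nearest such peak had a median of 17698 bp for absent and 19640 bp for kept regions. For H3K27ac the order was the opposite: regions without a WT peak lay at a median of 9282 bp from the nearest one when absent and 6198 bp when kept.

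Peaks of the other lists were scarcer at absent than at kept regions in all 10 lists. No peak of any of the 10 lay at 3419 absent regions (70.1%), against 34.5% of kept regions and 39.3% of all 36001. Knockout H3K27ac lay at 165 absent regions (3.38%) and 15.4% of kept regions, with 13.7% over all. WT H3K27ac lay at 487 absent regions (9.99%, interval 9.16 to 10.9%) and 31.5% of kept regions, with 28.6% over all. Knockout H3K4me3 lay at 679 absent regions (13.9%) and 24.6% of kept regions, with 23.2% over all, and WT H3K4me3 at 19.6% and 37.5%, with 35.1% over all.

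A wider region meets more peaks by construction. When kept regions were weighted to the enrichment and width strata of absent regions, their share with WT H3K27ac was 20.0% in place of 31.5%, still above the 9.99% of absent regions. Their weighted share with knockout H3K27ac was 8.07%, against 3.38% of absent regions. For H3K4me3 the weighting moved little: the weighted kept share was 25.6% for knockout and 37.0% for WT peaks.

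NANOG was rare at absent regions in both replicates. In replicate 1, knockout NANOG peaks lay at 22 absent regions (0.451%) and 4.52% of kept regions, with 3.97% over all, and WT peaks at 166 (3.40%) and 17.0%, with 15.2% over all. In replicate 2, knockout NANOG peaks lay at 114 absent regions (2.34%) and 8.76% of kept regions, with 7.89% over all, and WT peaks at 49 (1.00%) and 7.38%, with 6.52% over all. Weighted kept shares were 1.20 and 6.19% for knockout and WT NANOG in replicate 1, and 4.00 and 2.65% in replicate 2, each above the absent share. WT peaks of both replicates met at 7 absent regions (0.144%), against 3.40% of kept regions and 2.96% of all. Of the 166 absent regions with WT NANOG in replicate 1, 147 had neither WT H3K4me3 nor WT H3K27ac (88.6%), against 56.3% of the 5289 kept regions with such a peak. WT H3K27ac lay at 12 of them (7.23%, against 35.3% of those kept) and WT H3K4me3 also at 12 (7.23%, against 23.2%).

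FLAG-BACH1 peaks of the merged list lay at 113 absent regions (2.32%, interval 1.91 to 2.78%) and 9.25% of kept regions, with 8.31% over all and a weighted kept share of 4.30%. The shorter single-caller list gave 32 absent regions (0.656%) and 3.26% of kept regions, with 2.91% over all and a weighted kept share of 1.42%. Seen from the BACH1 side, 113 of the 2992 H3K4me1 regions with a merged FLAG-BACH1 peak were absent in knockout (3.78%), against 14.4% of the 33009 without one. The regions with FLAG-BACH1 were wider, with a median of 2505 bp against 1119 bp, and the enrichment and width strata by themselves give 6.43 and 14.2%. Of the 113, 69 had neither WT H3K4me3 nor WT H3K27ac (61.1%), against 35.0% of the 2879 kept regions with FLAG-BACH1. WT H3K4me3 lay at 32 of them (28.3%, against 41.4% of those kept), WT H3K27ac at 30 (26.5%, against 52.1%) and WT NANOG of replicate 1 at 18 (15.9%, against 36.5%).

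**Figure D3:**
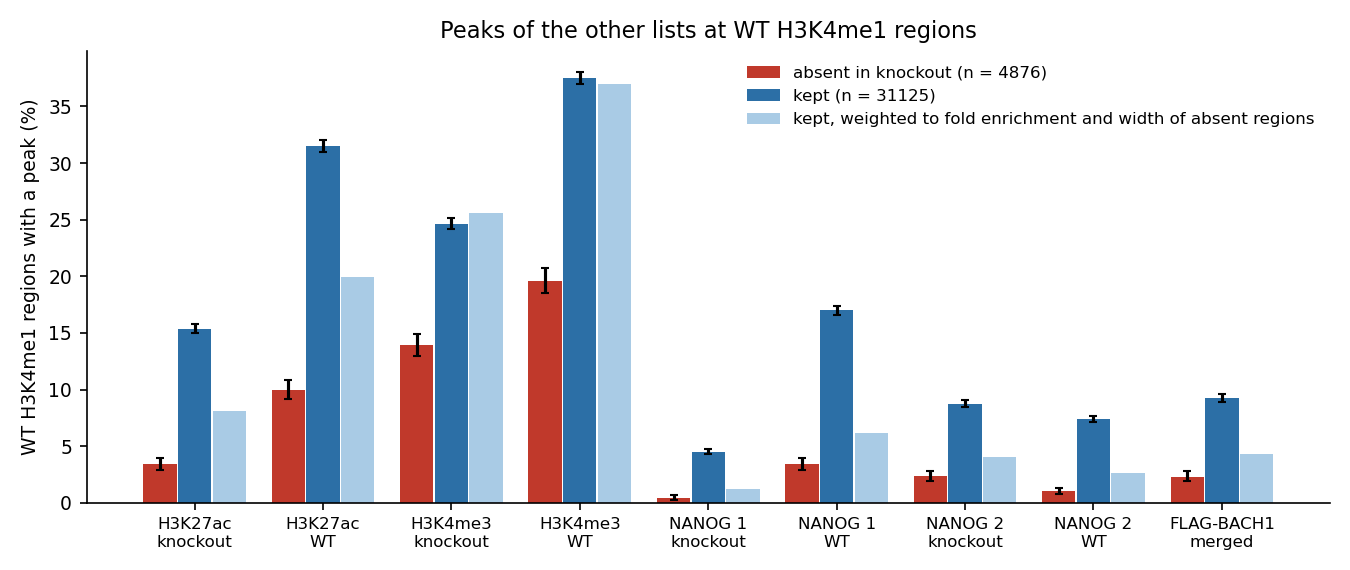
Share of WT H3K4me1 regions (y axis, percent) that overlap a peak of each other list by at least 1 bp, for 4876 absent regions, 31125 kept regions and kept regions weighted to the fold enrichment and width of absent ones; bars on the first 2 are 95% exact binomial intervals. Absent regions are lowest in every list shown, for example 9.99% against 31.5% for WT H3K27ac.

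Whether the other marks persisted at absent regions was read from their own knockout lists, which the rule did not use. Among regions with a WT H3K27ac peak, a knockout H3K27ac peak was present at 133 of 487 absent regions (27.3%, interval 23.4 to 31.5%) and at 4278 of 9800 kept regions (43.7%, interval 42.7 to 44.6%), with 42.9% over all. The difference of -16.3 percentage points was -4.67 when kept regions were weighted to the enrichment and width of absent ones. With only the stronger peaks of each H3K27ac list it was -5.36, with a 95% normal interval of -11.1 to 0.355 that includes 0. The WT H3K27ac peaks at absent regions were also the weaker ones, with a median MACS score of 114 against 164 at kept regions. In each quartile of that score the absent share was the lower, at 8.89 against 17.4% in the weakest quartile, 20.5 against 29.4% in the next, 38.2 against 55.7% in the third, and 58.4 against 71.1% in the strongest. The intervals of absent and kept regions overlapped in the second quartile and in no other. The score of a region is the highest among the WT peaks of the mark that it meets, here and for H3K4me3. The quartiles are not matched for width, and the wider kept regions meet more peaks by construction.

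H3K4me3 behaved otherwise. Of 956 absent regions with a WT H3K4me3 peak, 661 had a knockout H3K4me3 peak (69.1%, interval 66.1 to 72.1%), against 7577 of 11665 kept regions (65.0%, interval 64.1 to 65.8%) and 65.3% of all. The WT H3K4me3 peaks at absent regions had the higher median score, 471 against 429. Within score quartiles the shares lay close together, at 7.84 against 8.03% in the weakest, 70.0 against 64.5% in the next, 92.1 against 92.7% in the third and 94.1 against 95.6% in the strongest, and all 4 pairs of intervals overlapped. The difference of 4.19 percentage points was 0.87 after weighting for enrichment and width, and -1.8 with only the stronger peaks of each list. A promoter mark was thus still called in the knockout at most absent regions that had one in WT cells.

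**Figure D4:**
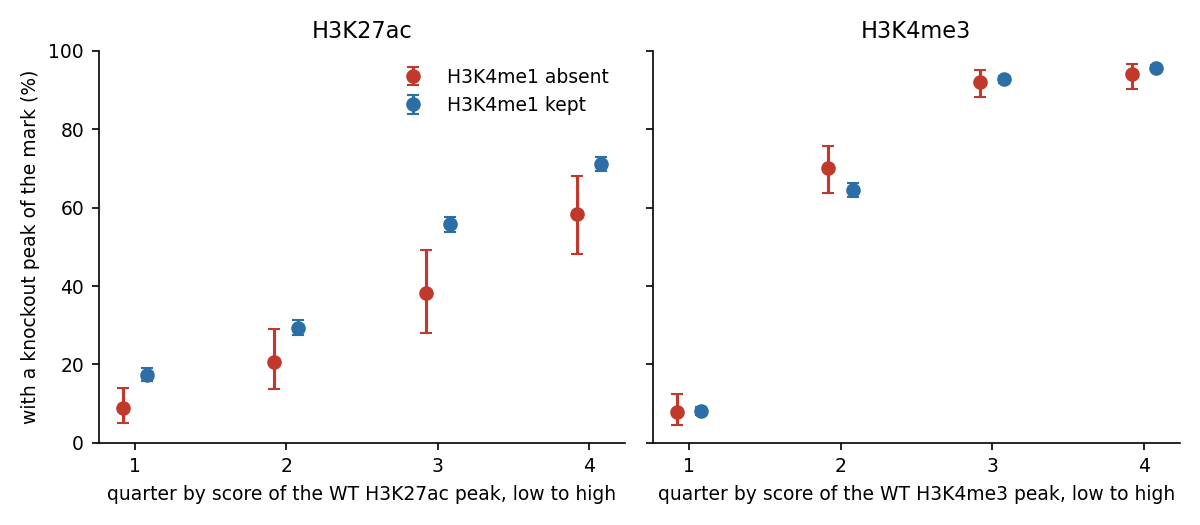
Share of regions with a WT peak of the mark that also overlap a knockout peak of it (y axis, percent). The x axis gives quartiles of the highest MACS score among a region's WT peaks, not matched for width. Panels show H3K27ac (left) and H3K4me3 (right), with 95% exact binomial intervals. For H3K27ac, absent regions lie below kept regions in each quartile (8.89 against 17.4% in the weakest), and for H3K4me3 the intervals overlap in all 4.

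Before weighting for enrichment and width, persistence of NANOG was lower at absent regions in replicate 1. In replicate 2 it was also lower, but the kept share lay within the counting interval of the absent one. In replicate 1, 21 of 166 absent regions with a WT peak had a knockout peak (12.7%, interval 8 to 18.7%), against 26.1% of 5289 kept regions and 25.6% of all. In replicate 2, 13 of 49 absent regions did (26.5%, interval 14.9 to 41.1%), against 37.0% of 2298 kept regions and 36.8% of all. That interval of replicate 2 takes in the kept share, rests on 49 regions and covers counting error only. In replicate 1 the WT NANOG peaks at absent regions were weaker, with a median fold enrichment of 4.91 against 5.20 at kept regions. Below the median fold of these peaks, 4 of 94 absent regions had a knockout peak (4.26%) against 5.47% of kept regions. Above it 17 of 72 did (23.6%), against 46.5%. The highest fold among a region's peaks was used, and width was not matched. Nanog RNA itself lay between 113 and 122 TPM in the knockout and between 305 and 309 TPM in the WT libraries, and its part in the NANOG peaks was not tested. Averaged over the replicates, the difference was -11.9 percentage points and -2.78 after weighting for enrichment and width.

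Peaks found in the knockout list alone were few at absent regions, and for H3K4me3 about as few at kept ones. H3K27ac was present in knockout and not in WT cells at 32 of 4389 absent regions without a WT peak (0.729%). The share was 2.37% of 21325 such kept regions and 2.09% over all. For H3K4me3 the counts were 18 of 3920 absent regions (0.459%) and 94 of 19460 kept regions (0.483%), with 0.479% over all. NANOG of replicate 1 had 1 such absent region of 4710 (0.0212%), against 0.112% of kept regions and 0.0982% of all. NANOG of replicate 2 had 101 of 4827 (2.09%), against 6.50% of kept regions and 5.87% of all. None of these shares was weighted for width. Of those 101, 31 also had knockout H3K4me3. Of the 165 absent regions with knockout H3K27ac, 102 had knockout H3K4me3 and 63 had none. Taking both marks together, 193 of the 214 absent regions with WT H3K27ac alone had neither mark in the knockout (90.2%), against 67.0% of kept regions of that class. Kept regions of that class were wider, with a median of 2161 bp against 806 bp, and the 2 shares were not weighted for width. At WT H3K4me3, 270 of 956 absent regions had neither mark in the knockout (28.2%), against 25.2% of kept regions. There too kept regions were wider, with a median of 1415 bp against 567 bp, and the shares were not weighted for width.

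Individual absent regions are given as examples. Coordinates are those of the mm9 build, and the regions were chosen by rank in each class on numbered chromosomes other than 18. The widest absent region of all, 12760 bp, lies on chromosome 18 and so falls outside that choice. No gene annotation of that build was used here, so genes at these places are not named. The highest fold enrichment, 4.28, belonged to a region of 537 bp at chr6:98900030-98900566, 7958 bp from the nearest knockout H3K4me1 peak. Next came 4.24 at chr3:14149546-14150211 and 4.19 at chr16:84046293-84046640, which lay 296171 and 441304 bp from any knockout peak of the mark. None of these 3 held a peak of any other list. The fourth, at chr2:131870697-131871072 with 4.06, held a WT NANOG peak of replicate 1 and the fifth, at chr7:91143215-91143720 with 4.04, no other peak.

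The widest on these chromosomes, 8413 bp at chr15:102221281-102229693, held H3K27ac and H3K4me3 peaks in both knockout and WT cells and a WT NANOG peak of replicate 1. Its neighbour at chr15:102230934-102235287, 4354 bp wide, had the highest fold enrichment among the absent regions with a merged FLAG-BACH1 peak on these chromosomes, 3.65. It held H3K4me3 in both genotypes and a WT NANOG peak of replicate 1. The stretch of both regions was thus without a knockout H3K4me1 peak while its H3K4me3 peaks were called in both genotypes. The next widest, 7879 bp at chr12:88279350-88287228 and 6324 bp at chr3:153600364-153606687, held no peak of another list.

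Among absent regions with WT and no knockout H3K27ac, the strongest were 4.02 at chr5:135165295-135165662, 3.97 at chr9:120528570-120529502 and 3.69 at chr9:77503448-77503773. The first and the third held H3K4me3 in both genotypes, and the second, of 933 bp, had no H3K4me3 and a WT NANOG peak of replicate 2. Those with H3K27ac in both genotypes were led by chr1:34900346-34900722 (3.48), chr7:53653230-53653553 (3.48) and chr19:60301339-60302839 (3.47), and all 3 held H3K4me3 in both genotypes. The region on chromosome 7 lay 55 bp from a knockout H3K4me1 peak, and the one on chromosome 19 lay 65042 bp away.

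The strongest absent region with WT NANOG in both replicates was chr6:91416866-91422184, 5319 bp wide with a fold enrichment of 3.59. It had no knockout NANOG peak in either replicate, no H3K27ac and no H3K4me3, and lay 23498 bp from knockout H3K4me1. The second, chr19:26681262-26682616, lay 15 bp from a knockout H3K4me1 peak and kept H3K27ac and H3K4me3, with knockout NANOG in replicate 2. The third, chr3:91767561-91769251, kept NANOG in replicate 1 of the knockout, 45088 bp from knockout H3K4me1. The other regions named for FLAG-BACH1 were chr4:86220136-86221091 (3.35), with H3K4me3 in both genotypes, and chr5:44251044-44252418 (3.34), with WT NANOG of replicate 1 and a peak of the single-caller FLAG-BACH1 list.

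Absent regions were spread over all chromosomes with H3K4me1 regions other than unplaced sequence, where 2 of 11 were absent. The X chromosome stood highest, with 94 regions absent (21.8%, interval 18 to 26%), and its enrichment and width strata give 13.4%. Autosomes ran from 10.8% on chromosome 11 to 16.9% on chromosome 16, and chromosome 8, at 11.3%, was the next lowest. Chromosomes 11 and 8 also had the lowest median fold enrichment of WT regions, 2.72 and 2.77, and chromosomes X and 6 the highest, 3.09 and 3.05, and the part of these levels in the shares was not tested. Among regions with a WT H3K27ac peak, the share with a knockout one was lowest on X, at 27.4% of only 73 regions. Chromosome 9 followed at 33.8%, and chromosome 11 was highest at 52.4%. These shares were not weighted for width and are given without intervals. Yet X had the most knockout H3K4me1 peaks per WT H3K4me1 peak, 1.80. Among autosomes this ratio ran from 1.35 on chromosome 6 to 1.65 on chromosome 16. The knockout H3K4me1 list of X as a whole was thus longer than its WT list. Within X, the window from 100000001 to 102000000, described below, held fewer knockout than WT H3K4me1 peaks, 18 against 26. The part of list length in the absent share of X was not tested.

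**Figure D5:**
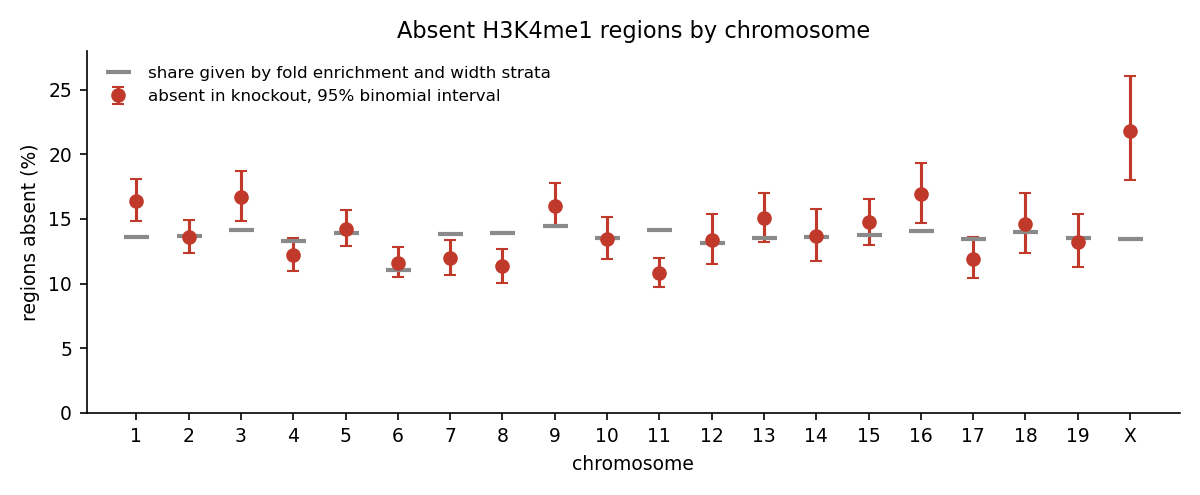
Share of WT H3K4me1 regions absent in knockout by chromosome (y axis, percent), with 95% exact binomial intervals, and the share that the fold enrichment and width strata of each chromosome's regions give (grey marks). The X chromosome lies highest at 21.8%, above its mark at 13.4%, and chromosome 11 lowest at 10.8%.

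In the order of the WT list, 3437 of the 4876 absent regions (70.5%) had a kept region, or the end of the chromosome, on both sides, against 75.7% of kept regions. There were 549 runs of exactly 2 neighbouring absent regions. The longest run of neighbouring absent regions, 7 of them, lay at chrX:100580121-100665461, and the run of 6 at chrX:100670384-101167404 followed it after 1 kept region. Of the 14 WT regions in this stretch, 13 were absent, with fold enrichments up to 3.92 and widths up to 5322 bp. The widest, chrX:100626603-100631924, and the region at chrX:100597489-100600275 held WT and no knockout H3K27ac, and chrX:100889810-100890232 held WT and no knockout peaks of both H3K27ac and H3K4me3. The absent region at chrX:100812849-100813638 held H3K4me3 in both genotypes, and chrX:100805652-100806155 held a WT NANOG peak of replicate 1. The region at chrX:100622190-100624581 held a FLAG-BACH1 peak of both lists. The single kept one, chrX:100668172-100668964, held NANOG in replicate 1 of both genotypes and in replicate 2 of WT cells. This stretch was picked after its values were seen.

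In windows of 2000000 bp with at least 15 WT regions, the share absent had a median of 13.6% over 751 windows, and 14 windows had none. The window from 100000001 to 102000000 on the X chromosome was the highest, with 15 of 26 regions absent (57.7%), where the strata give 13.5%. It held 18 knockout and 26 WT peaks of H3K4me1, 16 knockout and 32 WT peaks of H3K27ac and 9 knockout and 20 WT peaks of H3K4me3. On the next, chromosome 9 from 122000001 to 124000000, 9 of 17 regions were absent (52.9%), yet that window held 34 knockout and 17 WT H3K4me1 peaks.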

How the data were processed

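Per the submitters' processing notes, mm9 is the build of all samples, and Trim Galore, Bowtie2, MACS2, STAR, StringTie 1.3.4d and limma are named for the ChIP samples and HISAT2 and HOMER among those for the RNA samples, with no step assigned. The deposited H3K4me1 and NANOG lists have MACS2 layouts with a score, a fold enrichment ratio and −log10 p and q. An older MACS layout with a score was deposited for H3K27ac, H3K4me3 and single-caller FLAG-BACH1, and the merged FLAG-BACH1 list gives positions. The authors' RNA table gives TPM, which keep no depth. NANOG replicate 1 pools 2 runs per the labels. The names of both H3K4me1 lists carry 2 run numbers where the labels describe 1, so which runs were pooled is uncertain. Depth is not given in the files, so precision beyond region counts is unknown. The 4 input samples were not analysed here.

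Overlaps of 1 bp were computed in Python 3.11.15 (numpy 2.4.6, pandas 2.3.3, scipy 1.17.1, matplotlib 3.10.9). Functions were tested on simulated intervals. Groups came from sample titles. Weighting used 10 deciles of fold enrichment by 5 quintiles of width. Regions named were ranked by fold enrichment or width within each class. Alternatives were the overlap and distance that count as shared, stricter or shorter lists, coverage of other marks, weighting and replicates left out. The regions and lists were chosen with earlier results of these data known. RNA replicate numbers did not pair libraries (see the closing section).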

Additional observations from a re-analysis of the deposited data

How the results depend on the processing

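Depth is unknown, and a list's length sets what counts as absent. The share of absent WT H3K4me1 regions was 13.5% as reported, 22.4% where kept meant at least 50% covered, 10.8% with knockout peaks within 1 kb counted, 5.71% in the upper 18000 WT regions by −log10 q, and 26.5% with the knockout list shortened to the length of the WT list. Differences below are absent minus kept, in percentage points. With at least 50% covered, they were -19.2 for WT H3K27ac, -13.4 for WT H3K4me3, -9.27 for WT NANOG, -6.23 for FLAG-BACH1 and -10.1 for H3K27ac persistence. Within 1 kb, WT H3K4me3 gave -16.5 and WT NANOG -9.59. In the upper WT list they were -26.7 for WT H3K27ac, -14.9 for WT H3K4me3, -14.2 for WT NANOG, -9.25 for FLAG-BACH1 and 10.3 for H3K4me3 persistence. With the shortened knockout list, WT H3K4me3 gave -15.2. With the upper part of the other lists by score, WT H3K27ac gave -14.6, WT H3K4me3 -9.73 and WT NANOG -6.18. H3K27ac persistence gave -5.36 and H3K4me3 persistence reversed to -1.8, both with intervals that included 0. The merged FLAG-BACH1 list has no score, and its peaks that overlapped the single-caller list gave -2.63. Weighted for enrichment and width, the differences were -9.98 for WT H3K27ac, -2.22 for WT NANOG and -1.98 for FLAG-BACH1. For persistence they were -4.67 for H3K27ac, 0.871 for H3K4me3 and -2.78 for NANOG. With unweighted counting error, the intervals of H3K4me3 and NANOG persistence then included 0. Where other marks had to cover 10% of a region, they were -18.4 for WT H3K27ac, -7.02 for WT NANOG and -4.75 for FLAG-BACH1, and the single-caller FLAG-BACH1 list gave -2.61. With 1 NANOG replicate left out, WT NANOG ranged from -13.6 to -6.38 and NANOG persistence from -13.4 to -10.5. The interval of NANOG persistence included 0 without replicate 1 and also in the upper WT list. The same weighting, added after seeing the data, reversed the share wholly inside WT H3K4me3 peaks, 16.5 as reported, to -9.27. Of 68 alternative values, these 2 reversed, 34 moved outside the counting interval of the reported value and 32 did neither. The 32 include all Bach1 RNA alternatives, which have no counting interval. Those were sorted by a p-value threshold that 3 against 3 libraries cannot reach, so none could count as moved. The causes were not tested. Bach1 RNA kept its sign in all alternatives and ranged from -0.37 to -0.28 with 1 library left out. As paired differences with the replicate block it was -0.31 (exact sign-flip p = 0.25). Same-numbered RNA libraries deviated together with correlations of -0.00302, 0.0696 and -0.000791 over 12196 genes, so the numbers are not taken as pairs.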
